A study of Homo sapiens with 24 samples.

Results

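The transcripts described here encode the subunits of the respiratory chain and ATP synthase, in both their nuclear and their mitochondrial parts. Members were chosen by symbol: those starting with NDUFA, NDUFB, NDUFC, NDUFS, NDUFV, UQCR, ATP5, COX4 to COX8, MT-ND, MT-CO, MT-CYB or MT-ATP, without a pseudogene or antisense ending. The prefixes took 277 symbols, of which 167 pseudogenes and 3 antisense or divergent transcripts were left out, so that 107 of 38735 named genes remained. These were the 13 mitochondrial protein genes, 82 nuclear subunit genes, the 8 complex I assembly factors NDUFAF1 to NDUFAF8, the ATP synthase inhibitor ATP5IF1, the supercomplex factor COX7A2L and 2 read-through genes. A mean of at least 10 normalized counts over all 24 libraries was reached by 96 of the 107, namely all 13 mitochondrial genes, 73 nuclear subunits, the 8 assembly factors, ATP5IF1 and COX7A2L. Not tested were NDUFV2, NDUFA7, COX4I2, COX6A2, COX6B2, COX7A1, COX7B2, COX8C, ATP5MGL and the read-through genes NDUFC2-KCTD14 and ATP5MF-PTCD1.

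Complex I takes electrons from NADH and passes them to ubiquinone, complex III passes them to cytochrome c, and complex IV hands them to oxygen. All of them pump protons across the inner mitochondrial membrane, and ATP synthase (complex V) lets the protons flow back to make ATP. Each of these complexes is built from subunits of both genomes. The mitochondrial genes are transcribed as long RNAs that cover many genes and are then cut apart, while every nuclear subunit has a promoter of its own. In macrophages stimulated with LPS, metabolism is known to move from oxidative phosphorylation towards glycolysis.

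The cells were THP-1, a human monocytic leukaemia line, made macrophage-like with the phorbol ester PMA at 100 nM for 24 h in all groups. DCVC, S-(1,2-dichlorovinyl)-L-cysteine, is a metabolite of the solvent trichloroethylene, and LPS is a component of the outer membrane of gram-negative bacteria. The Control group had medium only, the DCVC group had 5 µM DCVC for 24 h, the LPS group had LPS at 100 ng/mL for 4 h, and the DCVC_LPS group had DCVC for 24 h and then fresh medium with LPS for 4 h. Each group has 6 poly-A selected libraries, lettered A to F. The labels do not say that the letters stand for separate cultures, so the p-values measure the spread between these libraries, which may be technical.

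The libraries held 18478618 to 30107819 reads in named genes, and the values are read counts that the authors divided by 1 factor per library. The normalized totals differed between groups, at 21135356 ± 563705 (mean ± SD, n = 6) for Control, 17774466 ± 305501 with DCVC, 29427331 ± 839114 with LPS and 21831254 ± 235113 with both, so changes are given on the deposited scale and after scaling every library to the same total. Equal totals moved the median of all 13900 tested genes from -0.03 to -0.50 on the log2 scale for LPS minus Control, from -0.03 to 0.22 for DCVC minus Control, from -0.07 to 0.36 for DCVC_LPS minus LPS and from -0.03 to -0.33 for DCVC_LPS minus DCVC. A gene was called when the adjusted p of limma was under 0.05. All 8 macrophage markers were detected, and their sum ran from 66538 to 81602 in Control, 52087 to 59670.2 with DCVC, 39547 to 41701 with LPS and 42129 to 45876 with both, although CD68 reached no more than 33.3. The markers did not all move with the sum. CSF1R averaged 32211 in Control, 24209 with DCVC, 9693 with LPS and 10876 with both. LYZ averaged 1455 in Control, 3223 with DCVC, 1628 with LPS and 3716 with both. SPI1 averaged 6967, 6376, 4743 and 8701 in the same order. The part of these marker levels in the results was not tested. The T cell markers summed to at most 2.84, with CD2 at 0 in every library, and the erythroid markers to at most 0.947, with HBB at 0. The B cell, epithelial and fibroblast markers summed to at most 33.8, 27.1 and 69.8, the last mainly from COL1A1. In bulk libraries, fewer cells of a kind and less RNA per cell cannot be told apart.

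The sequences that matter for reading the mitochondrial values are the places where genes overlap on the same strand. Reads from these bases cannot be given to 1 gene by position alone, and how they were counted is not known here. They come from the GRCh38 mitochondrial genome, and capitals mark the bases that both genes share, 46 in the first pair (chrM:8527-8572) and 7 in the second (chrM:10760-10766), each with 15 bases on either side.
MT-ATP8 and MT-ATP6: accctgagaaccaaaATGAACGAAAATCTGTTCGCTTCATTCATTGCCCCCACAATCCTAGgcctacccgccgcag
MT-ND4L and MT-ND4: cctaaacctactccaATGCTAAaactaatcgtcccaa
In the cell each pair is carried on 1 transcript, so MT-ATP8 with MT-ATP6, and MT-ND4L with MT-ND4, are not independent measurements.

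The nuclear sequences shown are the 250 bases before the start of 3 genes of the complex I core that fell together after LPS, as described further on (RefSeq, GRCh38.p14, 5′ to 3′ on the gene's strand). Capitals mark an ETS core, CCGGAAG, or an NRF1 core, CGCATGCG, searched on both strands. The ETS core is the site of the GABP factors and the NRF1 core that of NRF1, both known activators of nuclear subunit genes.
NDUFS3 (chr11:47578824-47579073): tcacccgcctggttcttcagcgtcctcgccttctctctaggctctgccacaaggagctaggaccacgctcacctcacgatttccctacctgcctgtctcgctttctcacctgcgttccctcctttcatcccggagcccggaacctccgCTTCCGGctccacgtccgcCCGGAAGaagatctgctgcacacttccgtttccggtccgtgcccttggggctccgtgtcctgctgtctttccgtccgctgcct
NDUFS7 (chr19:1383657-1383906): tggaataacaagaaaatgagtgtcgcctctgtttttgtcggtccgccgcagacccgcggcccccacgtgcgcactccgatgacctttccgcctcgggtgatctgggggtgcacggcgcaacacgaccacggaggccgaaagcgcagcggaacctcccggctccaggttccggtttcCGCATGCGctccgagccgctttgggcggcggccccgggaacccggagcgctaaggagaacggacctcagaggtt
NDUFS8 (chr11:68030431-68030680): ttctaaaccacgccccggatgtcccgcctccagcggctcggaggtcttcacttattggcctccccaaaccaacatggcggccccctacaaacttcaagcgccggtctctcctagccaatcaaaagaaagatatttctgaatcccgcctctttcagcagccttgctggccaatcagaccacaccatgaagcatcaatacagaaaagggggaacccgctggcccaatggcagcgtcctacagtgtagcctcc
NDUFS3 held 2 ETS cores and no NRF1 core, NDUFS7 held 1 NRF1 core, and NDUFS8 held neither. Of the 2 core genes compared with them further on, NDUFS1 held 1 ETS core (in the first of its 2 windows) and NDUFV1 held neither core. Promoter windows of 300 bases, the 250 before the start and 50 after it, were found for 66 of the 82 nuclear subunits, some of which have more than 1. The NRF1 core lay in 10 of 73 windows of tested nuclear subunits (13.7%), against 2.00% of 34943 windows of all genes. The ETS core lay in 20 of the 73 (27.4%), against 10.2%. In complex I, to which the genes shown belong, it lay in 5 of 37 windows (13.5%), close to the share of all genes. In complexes III, IV and V it lay in 3 of 7, 5 of 12 and 7 of 17. A match is a description of these letters and no evidence of binding.

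Per kilobase of annotated exon and averaged over the 24 libraries, the mitochondrial transcripts stood high: 12 of the 13 lay above every nuclear subunit. The highest was MT-CO1, the catalytic subunit of complex IV, at 59156 normalized counts per kilobase, followed by MT-ND4 at 35563 and MT-CO2 at 31067. The lowest mitochondrial gene was MT-ND6, the only one transcribed from the opposite strand and known to lack a poly-A tail, at 921, which was below 12 nuclear subunits. The highest nuclear subunit was ATP5F1B, the catalytic beta subunit of ATP synthase, at 4662, and NDUFS5 and COX8A followed at 3062 and 2655. The 13 mitochondrial genes together took 1.16% of all values in Control (mean of 6 libraries), and the 82 nuclear subunits took 0.576%.

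LPS raised every mitochondrial subunit. On the deposited scale all 13 were called raised, against 37.8% of all tested genes, with a median log2 change of 0.81, and for all 13 every LPS library lay above every Control library, as was so for 28.7% of all genes. With equal totals 12 of the 13 were called raised, against 22.4% of all genes, with a median of 0.33 where all genes had -0.50, and MT-ND2 was the 1 gene whose groups did not overlap (LPS lay wholly higher in 16.2% of all genes). Relative to the median of all genes the mitochondrial median stood 0.84 higher on both scales.

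MT-ND2, a membrane subunit of complex I, changed most. Its normalized counts ran from 9902 through a median of 11519.7 to 13307 in Control and from 20584 through 24401 to 34946 in LPS. The change was 1.18 on the log2 scale (SE 0.12, adjusted p = 3.28e-09), and 0.70 with equal totals (adjusted p = 1.58e-05). MT-CO1, the most abundant, ran from 68435 through 78073 to 90799 in Control and from 105492 through 117587 to 130052 in LPS. It had the smallest of the 13 changes, 0.58 (SE 0.10, adjusted p = 1.23e-05), and was the 1 gene not called with equal totals (0.10, adjusted p = 0.385). MT-CO3, another core subunit of complex IV, went from 11234 to 16039.9 in Control, median 14448, to a range of 21626 to 33438 in LPS, median 25903.

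The remaining mitochondrial genes rose by amounts between these. The changes were 0.91 for MT-CO3, 0.90 for MT-CYB, the cytochrome b of complex III, 0.86 and 0.79 for the ATP synthase subunits MT-ATP6 and MT-ATP8, and 0.73 for MT-CO2. In complex I they were 0.85 for MT-ND4, 0.82 for MT-ND4L, 0.81 for MT-ND3, 0.78 for MT-ND1 and 0.68 for MT-ND5. MT-ND6, from the opposite strand, ran from 355 to 446 in Control and from 586 to 786 in LPS and rose by 0.70 (SE 0.085, adjusted p = 5.94e-08). The 2 mitochondrial rRNAs, which are not members, rose by 0.75 (MT-RNR1, adjusted p = 8.42e-06) and 0.47 (MT-RNR2, adjusted p = 0.00351), and with equal totals neither was called. MT-RNR2 was 0.349 to 0.463 of the summed mitochondrial members in Control and 0.291 to 0.356 in LPS.

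**Figure D1:**
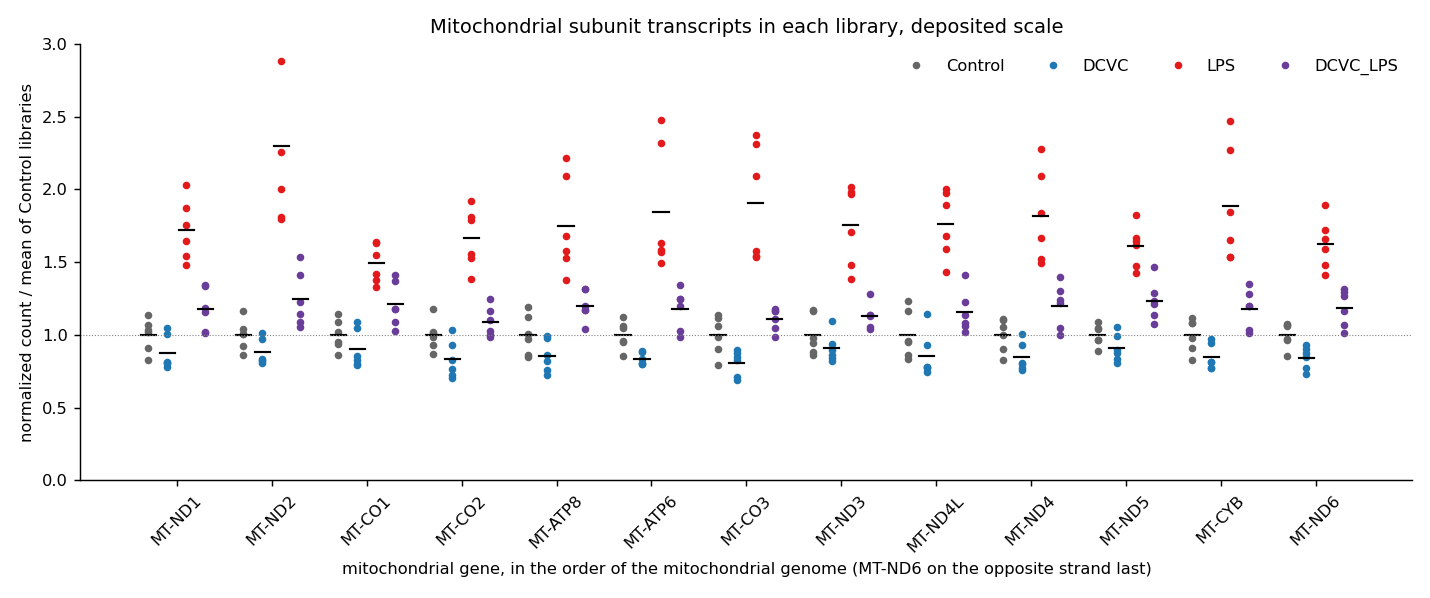
Normalized counts of the 13 mitochondrial subunit genes divided by the mean of the Control libraries, on the deposited scale (vertical axis), 1 point per library and a black bar at the mean of the 6 libraries of each group. The LPS libraries lie above every Control library for all 13 genes, and the DCVC_LPS libraries all lie below those of LPS for 11 of them; the groups overlap for MT-CO1 and MT-ND5.

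The nuclear subunits did not follow. Of 73 tested, 13 were called raised and 23 lowered by LPS on the deposited scale, against 37.8% raised and 40.6% lowered among all genes, and the median was -0.09. With equal totals 1 was raised and 64 were lowered, against 22.4% and 59.5%, with a median of -0.57 where all genes had -0.50. The nuclear median lay 0.06 below that of all genes on either scale. The log2 change of every tested nuclear subunit lay below that of every mitochondrial subunit of its own complex: the closest pair was NDUFV3 at 0.66 and MT-ND5 at 0.68. By complex, the deposited medians were -0.10 for complex I (7 raised and 14 lowered of 35), -0.15 for complex III (3 and 2 of 9), 0.08 for complex IV (1 and 1 of 12) and -0.14 for complex V (2 and 6 of 17).

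**Figure D2:**
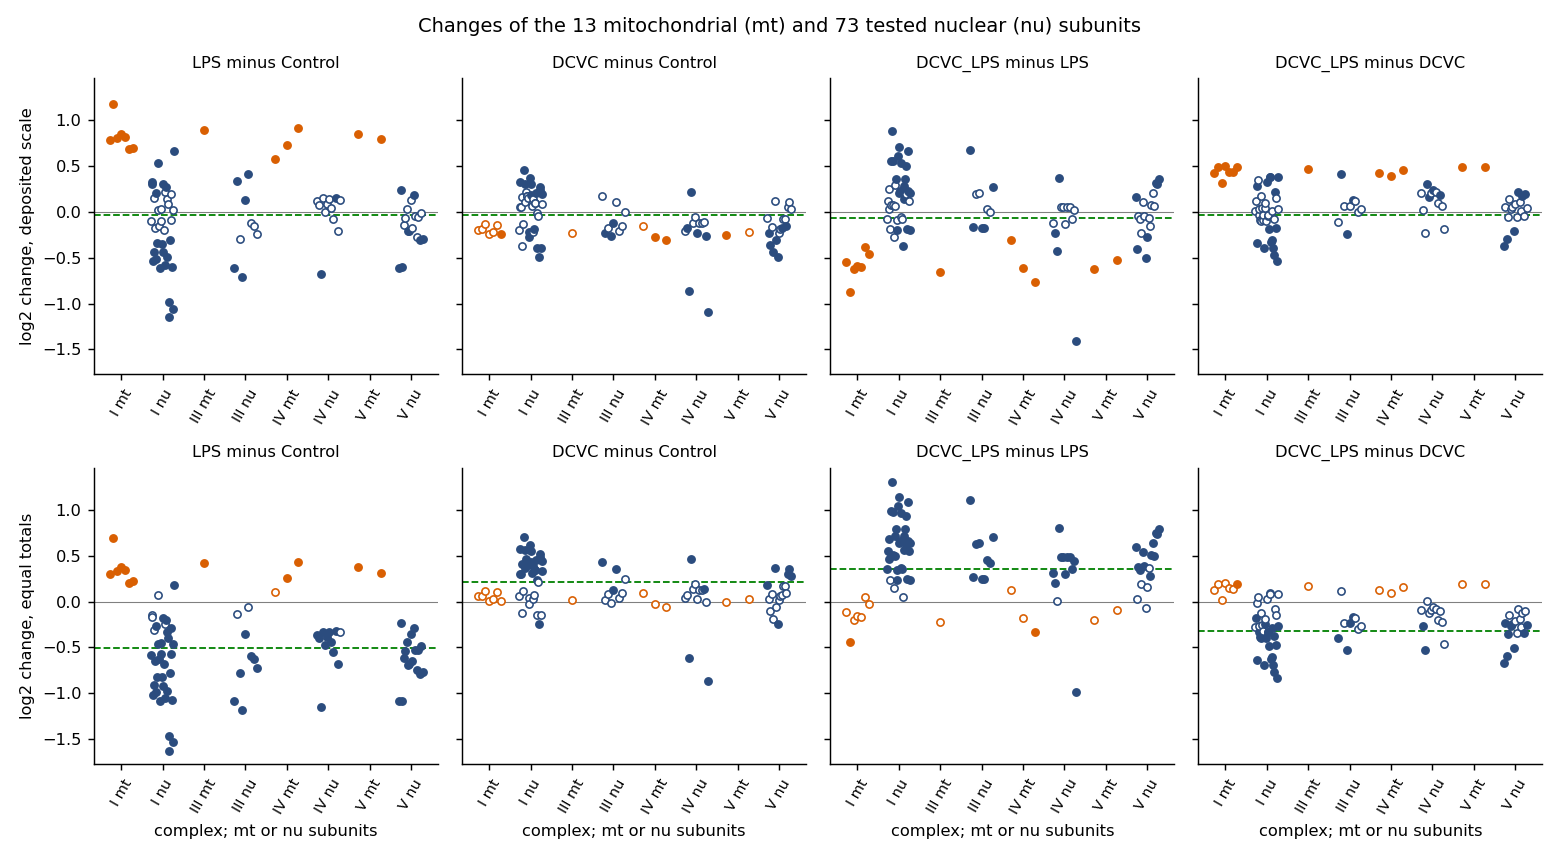
Log2 change of each tested subunit (vertical axis) in 4 comparisons (columns), by complex and genome (horizontal axis, mt for mitochondrial and nu for nuclear), on the deposited scale (top) and with equal totals (bottom). Filled points were called, open points were not, and the dashed line is the median of all 13900 tested genes, which lies at -0.03 (deposited) and -0.50 (equal totals) for LPS minus Control. After LPS every mitochondrial point lies above all nuclear ones of its own complex, on both scales.

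A ratio of both sets within a library does not depend on the scaling. The summed mitochondrial over the summed nuclear subunits ran from 1.79 through a median of 1.99 to 2.40 in Control, from 1.76 through 1.86 to 2.22 with DCVC, from 3.18 through 3.56 to 4.65 with LPS and from 2.12 through 2.66 to 3.17 with both. The LPS libraries lay above all others, the DCVC_LPS libraries between, touching Control and DCVC at their lower end, and the ranges of Control and DCVC overlapped. Means were 2.03 ± 0.22 in Control, 1.95 ± 0.21 with DCVC, 3.79 ± 0.58 with LPS and 2.62 ± 0.39 with both (SD, n = 6).

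Letter by letter, the log2 ratio was higher with LPS than in Control by 0.80 to 1.04, in 6 of 6 letters. The letters may not be 6 separate units, since libraries of A and B, of C and D, and of E and F also deviated together (median correlation 0.286 over 36 pairs of libraries, against 0.330 for the same letter). After DCVC it was higher with LPS than without by 0.21 to 0.60, also in 6 of 6. DCVC_LPS minus LPS ran from -0.81 to -0.17, below 0 in 6 of 6, with the lowest values in letters A and B (-0.81 and -0.71) and the highest in E and F (-0.31 and -0.17). DCVC minus Control ran from -0.45 in letter A to 0.23 in letter F, above 0 in 3 letters and below 0 in 3. The effect of LPS after DCVC less that in untreated cells was -0.61 to -0.36, below 0 in 6 of 6. Being a score over members, the ratio was given no p.

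Within each complex the ratio rose as well. The log2 ratio of mitochondrial to nuclear subunits was higher with LPS than in Control by 1.03 on average over the letters for complex I, 1.15 for complex III, 0.68 for complex IV and 0.94 for complex V, in 6 of 6 letters each. For complex IV the single nuclear call in each direction on the deposited scale was COX8A, raised by 0.15, and COX5B, lowered by 0.68. With equal totals COX8A was lower with LPS, at 1034 to 1202 against 1289 to 1552 in Control.

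**Figure D3:**
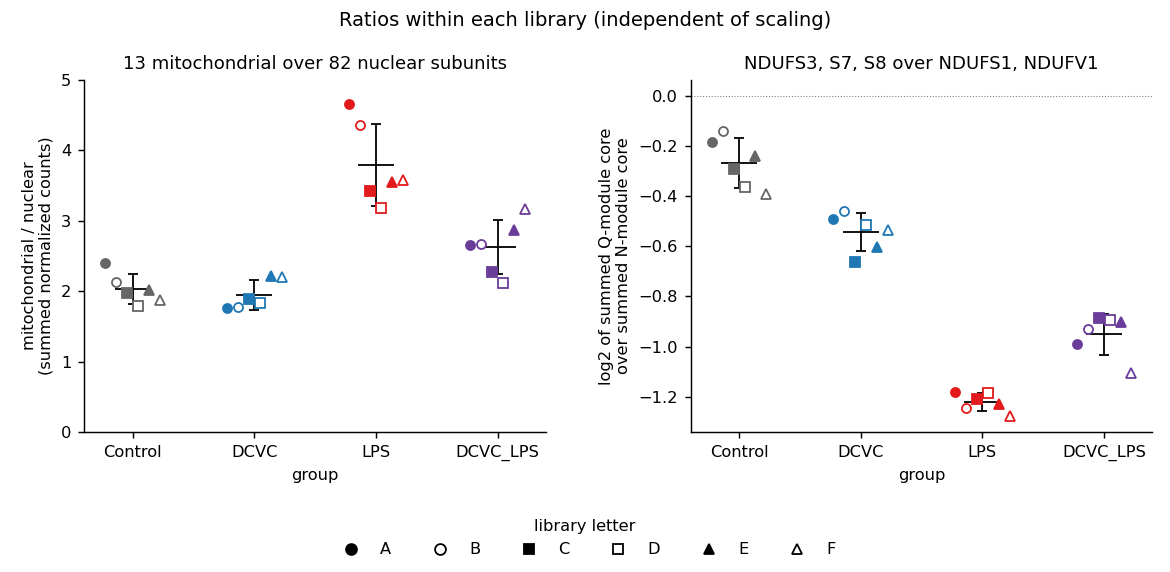
Ratios within each library (vertical axes) in the 4 groups (horizontal axis), with 1 symbol per library letter and a bar with whiskers for mean and SD of 6 libraries. Left, summed mitochondrial over summed nuclear subunits, highest in LPS at 3.18 to 4.65. Right, log2 of summed NDUFS3, NDUFS7 and NDUFS8 (Q module of complex I) over summed NDUFS1 and NDUFV1 (N module), at -0.39 to -0.14 in Control and -1.28 to -1.18 in LPS, with no overlap between any groups.

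In complex I, NDUFS3, NDUFS7 and NDUFS8 fell with LPS, core subunits of the Q module, where ubiquinone is reduced. The core of the N module, where NADH is oxidised, has NDUFV1, NDUFV2 and NDUFS1. This grouping is the textbook one but was chosen after the values were seen, so it has no test of its own, and the tests are those of the single genes in the fit over all genes.

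NDUFS8, which carries iron-sulfur clusters, ran from 795 through 1059.8 to 1448 in Control and from 431 through 519 to 649 in LPS, a change of -1.06 (SE 0.12, adjusted p = 3.10e-08). NDUFS3 (chr11:47565336-47584562) ran from 849 through 963 to 1154 in Control and from 438 through 482 to 614 in LPS, a change of -0.99 (SE 0.082, adjusted p = 5.13e-11). NDUFS7 (chr19:1383527-1395589), which passes electrons to ubiquinone, ran from 713 through 810.1 to 866 in Control and from 443 through 521 to 597 in LPS, a change of -0.60 (SE 0.069, adjusted p = 1.91e-08). In all 3 genes every LPS library lay below every Control library, which held for 28.1% of all genes. Of the exon bases of NDUFS7 49.1% and of those of NDUFS3 22.4% also lie in other annotated genes, and the sources used here do not state whether the counting used strand.

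The N module core did not show this. NDUFS1 ran from 1941 to 2159 in Control and from 1990.3 to 2261 in LPS, and NDUFV1, the NADH-binding subunit, from 1308 to 1572 and from 1309 to 1625. The ranges overlapped and the changes were 0.09 (adjusted p = 0.163) and 0.02 (adjusted p = 0.811), while with equal totals both were called lowered at -0.39 and -0.46, against -1.53 for NDUFS8, -1.46 for NDUFS3 and -1.07 for NDUFS7. NDUFV2 averaged 5.38 normalized counts in Control, and 28.4% of its exon bases also lie in another annotated gene, so its level is uncertain. The log2 ratio of summed NDUFS3, NDUFS7 and NDUFS8 to summed NDUFS1 and NDUFV1, again free of scaling, was -0.39 to -0.14 in Control, -0.66 to -0.46 with DCVC, -1.10 to -0.89 with both and -1.28 to -1.18 with LPS. LPS minus Control was below 0 in 6 of 6 letters (-1.10 to -0.82), and DCVC minus Control likewise (-0.37 to -0.14).

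**Figure D4:**
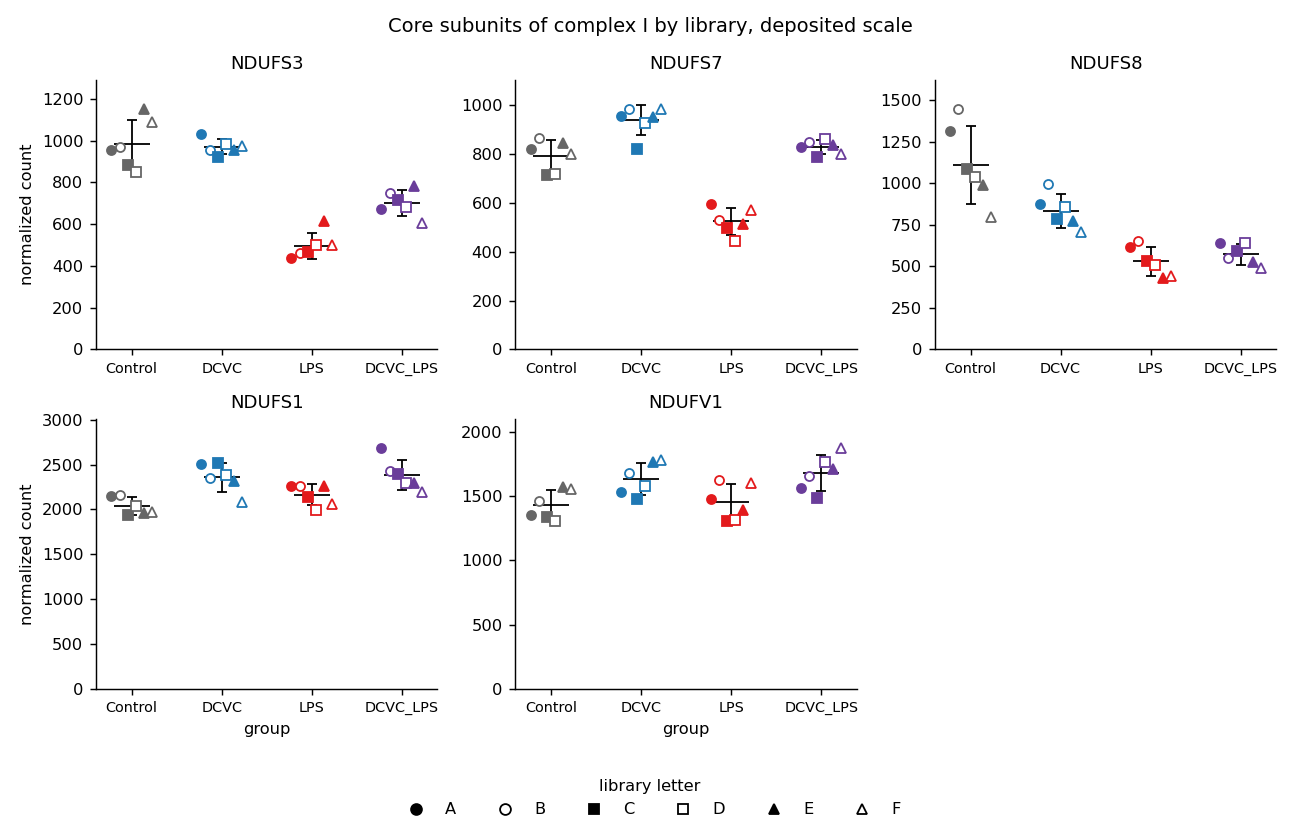
Normalized counts of 5 core subunits of complex I (vertical axes, from 0) in the 4 groups, with 1 symbol per library letter and a bar with whiskers for mean and SD of 6 libraries. In NDUFS3, NDUFS7 and NDUFS8 the LPS libraries lie below all Control libraries, while in NDUFS1 and NDUFV1 the groups overlap.

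Elsewhere in the nuclear set LPS changed single subunits in both directions. UQCRC1, a core subunit of complex III, ran from 5232 through 6238 to 8434 in Control and from 3483 through 3812 to 4542 in LPS (-0.71, SE 0.099, adjusted p = 5.07e-07). The Rieske iron-sulfur protein of the same complex, UQCRFS1, was raised by 0.42 (adjusted p = 2.47e-07) on the deposited scale and was at -0.06 with equal totals (adjusted p = 0.300). In the catalytic head of ATP synthase, the alpha subunit ATP5F1A fell from a range of 6035 to 7347 to one of 4070.1 to 4797 (-0.61, SE 0.051, adjusted p = 8.06e-11). Its partner, the beta subunit ATP5F1B, rose from 10433 to 11868 to a range of 12179 to 13973 (0.24, SE 0.046, adjusted p = 4.79e-05), but with equal totals it was lowered (-0.24, adjusted p = 6.57e-05). On the deposited scale NDUFV3, a small N-module subunit, rose by 0.66 and NDUFA9 by 0.54, while NDUFB10 fell by 0.61. NDUFA9 averaged 70.5 in Control on this scale. With equal totals the means in Control and LPS were 963 and 1094 for NDUFV3, 75.2 and 79.1 for NDUFA9, and 895 and 423 for NDUFB10.

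ATP5IF1, the protein that blocks ATP hydrolysis by ATP synthase, fell more than any ATP synthase subunit. It ran from 429 through 558 to 874 in Control, from 658 through 714 to 913 with DCVC, from 232 through 284 to 320.4 with LPS and from 499 through 593 to 692 with both. All LPS libraries lay below those of the other 3 groups. LPS minus Control was -1.08 (SE 0.14, adjusted p = 2.70e-07), DCVC_LPS minus LPS was 1.07 (SE 0.14, adjusted p = 4.52e-07), and the difference between the LPS effects with and without DCVC was 0.72 (adjusted p = 0.00568).

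On the deposited scale DCVC alone lowered about as large a share of the mitochondrial genes as of all genes, and raised none. Of the 13 mitochondrial genes none was called raised and 4 were called lowered, against 27.5% raised and 32.2% lowered among all genes, and the median was -0.22. The 4 were MT-CO3 (-0.30), MT-CO2 (-0.27), MT-ATP6 (-0.26) and MT-ND6 (-0.25). In no mitochondrial gene were the DCVC and Control libraries separate, while they were so in 16.6% (higher) and 19.8% (lower) of all genes (30.6% and 11.2% with equal totals), and with equal totals no mitochondrial gene had separate groups and none was called in either direction (median 0.03, where all genes had 0.22, with 46.1% raised and 20.1% lowered). With the letter as a replicate block 11 of the 13 were called lowered, and 25 of the 73 tested nuclear subunits. The share of all genes called in that fit is not given here, so the 11 has no background beside it. Leaving out single libraries also moved the count of 4: it was 1 without Control E or DCVC D, 2 without Control B, DCVC B or DCVC C, 8 without Control D and 9 without DCVC E.

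Among the 73 tested nuclear subunits 12 were called raised and 21 lowered by DCVC, against 27.5% and 32.2% of all genes, with a median of -0.08. With equal totals the median turned to 0.17 with 34 raised and 4 lowered, against 46.1% and 20.1%, so the share raised was close to that of all genes. Without Control E the count lowered was 13. By complex, the deposited scale gave 11 raised and 6 lowered of 35 in complex I and 0 raised and 7 lowered of 17 in complex V. The contrast between complexes was not tested.

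COX5B, a subunit of complex IV, fell most among the nuclear subunits with a mean of at least 50. It ran from 2820.2 through 3597 to 5226 in Control and from 1754 through 1947 to 2386 in DCVC, without overlap (-0.87, SE 0.13, adjusted p = 2.45e-06). ATP5MC3, 1 of the 3 genes for the c-ring of ATP synthase, fell by 0.50 (adjusted p = 1.01e-06) and ATP5MC2, another of them, by 0.31 (adjusted p = 8.21e-04), while ATP5MC1 was at 0.12 (adjusted p = 0.206). NDUFS5 of complex I fell by 0.49, from a range of 1622 to 2084 to one of 1307 to 1462 (adjusted p = 5.89e-06). These 4 calls do not all hold with equal totals, where COX5B stood at -0.62, ATP5MC3 at -0.25 and NDUFS5 at -0.24, all called, and ATP5MC2 at -0.06, not called. Raised by DCVC were NDUFA5 (0.46, adjusted p = 2.96e-04) and NDUFB5 (0.31, adjusted p = 0.00509), accessory subunits of complex I.

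In cells given LPS, prior DCVC was followed by lower mitochondrial transcripts. DCVC_LPS minus LPS had all 13 called lowered, against 39.4% of all genes, with a median of -0.60, and in 11 of the 13 the groups did not overlap (29.4% of all genes were wholly lower), the exceptions being MT-CO1 and MT-ND5. With equal totals the groups of all 13 overlapped, where 15.3% of all genes were wholly lower and 42.1% wholly higher, and 2 were called lowered (MT-ND2 at -0.44 and MT-CO3 at -0.33), against 21.9% of all genes, the median was -0.17, and MT-CO1 and MT-ND5 changed sign, at 0.12 and 0.05. The mitochondrial median lay 0.53 below that of all genes on both scales.

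MT-ND2 ran from 12098 through 13577 to 17626 in DCVC_LPS, wholly below the 20584 to 34946 of LPS (-0.87, SE 0.12, adjusted p = 7.50e-07). MT-ND4 ran from 40311 to 56255, against 60220.2 to 91927 in LPS (-0.59, SE 0.11, adjusted p = 4.07e-05). MT-CO3 changed by -0.76, MT-CYB by -0.66, MT-ATP6 and MT-ND3 by -0.63 each, MT-CO2 by -0.61, MT-ND4L by -0.60, MT-ND1 by -0.55, MT-ATP8 by -0.52, MT-ND6 by -0.45, MT-ND5 by -0.38 and MT-CO1 by -0.31. The rRNAs MT-RNR1 and MT-RNR2 were at -0.14 and -0.22 and not called (adjusted p = 0.324 and 0.151), and MT-RNR2 was called with the replicate block (adjusted p = 0.00269). With equal totals MT-RNR1 was called raised, at 0.29 (limma, adjusted p = 0.0385), and MT-RNR2 was not called, at 0.21 (limma, adjusted p = 0.166).

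About as large a share of the nuclear subunits as of all genes was raised in the same comparison, and a smaller share was lowered. Of 73, 23 were called raised, 13 lowered and 37 not called, against 33.3% raised and 39.4% lowered among all genes, with a median of 0.07, and with equal totals 63 were raised and 1 lowered, against 54.5% and 21.9%, with a median of 0.50 where all genes had 0.36. Complex I held 16 of the 23 raised. Among them NDUFA5 rose by 0.88 (SE 0.098, adjusted p = 1.83e-08), from 634 to 848 in LPS to 1153 to 1512 in DCVC_LPS, and NDUFB5 by 0.71 (SE 0.090, adjusted p = 1.60e-07), from 709.7 to 932 to a range of 1191 to 1387. In the Q module NDUFS7 rose by 0.66 and NDUFS3 by 0.50, and NDUFS8 was at 0.12 (adjusted p = 0.381). The largest falls among nuclear subunits with a mean of at least 50 were ATP5MC3 by 0.50, COX5B by 0.42, ATP5F1B by 0.40 and NDUFC1 by 0.37, and with equal totals none of the 4 was called.

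LPS still raised the mitochondrial genes in cells given DCVC first. DCVC_LPS minus DCVC had all 13 called raised, against 29.9% of all genes, with a median of 0.46, and 7 of the 13 had groups that did not overlap, among them MT-ND2, MT-CYB and MT-CO3 (22.1% of all genes were wholly higher). With equal totals the groups of all 13 overlapped, where 11.8% of all genes were wholly higher and 40.4% wholly lower, and only MT-ND6 was called, at 0.19 (adjusted p = 0.0459), against 16.3% of all genes raised and 52.7% lowered, and the median was 0.16 where all genes had -0.33. Nuclear subunits were called raised in 15 cases and lowered in 13, against 29.9% and 32.2%, with a median of 0.04, and with equal totals in 0 and 36 cases, against 16.3% and 52.7%, with a median of -0.26. In the Q module NDUFS8 was again lowered, by 0.54, NDUFS3 by 0.47 and NDUFS7 by 0.18, and NDUFB10 fell by 0.40. UQCR11, a small subunit of complex III, rose by 0.41, and NDUFB8 by 0.38 at a mean of about 58 counts, with 48.5% of its exon bases in another gene.

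The interaction, the effect of LPS after DCVC minus the effect of LPS without it, tested whether these effects differed. Of the mitochondrial genes 5 were called lowered and none raised, against 23.7% lowered and 22% raised among all genes, with a median of -0.36. They were MT-ND2 (-0.68, adjusted p = 0.00228), MT-ND3 (-0.49, adjusted p = 0.00540), MT-CO3 (-0.45, adjusted p = 0.0224), MT-CYB (-0.42, adjusted p = 0.0311) and MT-ND1 (-0.36, adjusted p = 0.0411). With equal totals MT-ND2 remained called, at -0.50 (adjusted p = 0.0208), against 16.1% of all genes lowered and 33.1% raised, and the median was -0.18. With the replicate block 10 of the 13 were called lowered, and 6 of the 73 tested nuclear subunits. The share of all genes called in that fit is not given here. The count of 5 was 3 without Control C, Control D, DCVC E, DCVC F, LPS A, LPS B, DCVC_LPS C or DCVC_LPS D, 8 without LPS D or LPS F, and 9 without LPS C or DCVC_LPS F.

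Of the 73 nuclear subunits 17 had a called interaction above 0 and 5 one below it, against 22% and 23.7% of all genes, with a median of 0.17, so the share above 0 was close to that of all genes. With equal totals the counts were 34 and 0, against 33.1% and 16.1%. Above 0 were, among others, NDUFS3 (0.51, SE 0.12, adjusted p = 8.27e-04), NDUFS8 (0.52), UQCR10 (0.50), UQCRC1 (0.47), COX5B (0.45), NDUFA5 and NDUFS7 (0.42 each). All of these were lowered by LPS in cells without DCVC. Below 0 were NDUFA9 (-0.50), NDUFC1 (-0.47), UQCRFS1 (-0.29), NDUFV3 (-0.28) and ATP5F1B (-0.18), none of them called with equal totals. The 5 was 3 without Control D or LPS A and 2 without LPS B.

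NDUFAF2 and NDUFAF4 rose with LPS, both assembly factors of complex I, which help build the complex but are not part of it. Of the whole group LPS raised 5 of 8 and lowered none on the deposited scale, against 37.8% raised and 40.6% lowered among all genes, and raised 2 and lowered 4 with equal totals, against 22.4% and 59.5%. NDUFAF2 ran from 163 through 204 to 246 in Control, 248 through 285 to 356 with DCVC, 436 through 574 to 657 with LPS and 378 through 419 to 465 with both, and its change with LPS was 1.45 (SE 0.11, adjusted p = 1.58e-11). NDUFAF4 rose with LPS by 1.19 (SE 0.088, adjusted p = 6.48e-12), from 471 to 575 in Control to 1065 to 1242 in LPS. The interaction was -0.90 (adjusted p = 6.56e-05) for NDUFAF2 and -0.46 (adjusted p = 0.00399) for NDUFAF4, and the latter was not called with equal totals (-0.28, adjusted p = 0.0568).

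On the deposited scale NDUFAF6 had the largest change of any member. It ran from 224 through 258 to 289.6 in Control and 156 through 179 to 188 with DCVC. With LPS it ran from 304 through 371 to 434 and with both from 85.9 through 103 to 132, and no group overlapped another. With equal totals Control (237 to 321) and LPS (228 to 345) overlapped, and DCVC_LPS (89.2 to 139) still lay below all others. DCVC_LPS minus LPS was -1.79 (SE 0.10, adjusted p = 1.43e-13; -1.36 with equal totals) and the interaction -1.27 (adjusted p = 1.74e-07). NDUFAF1 rose with DCVC in both settings, by 0.72 without LPS (adjusted p = 5.98e-06) and 0.93 with it (adjusted p = 6.05e-08), and NDUFAF7 by 0.56 and 0.42. On the deposited scale NDUFAF5 and NDUFAF8 were called in no comparison, but with equal totals LPS minus Control lowered both, NDUFAF5 by 0.48 (adjusted p = 0.00883) and NDUFAF8 by 0.37 (adjusted p = 3.17e-04). In the same setting NDUFAF8 was raised in DCVC_LPS minus LPS, at 0.37 (adjusted p = 3.52e-04), and in DCVC minus Control, at 0.20 (adjusted p = 0.0429), and both genes were lowered in DCVC_LPS minus DCVC. NDUFAF3 ranged from -0.33 (DCVC_LPS minus LPS) to 0.37 (LPS minus Control), both called on the deposited scale and neither with equal totals.

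**Figure D5:**
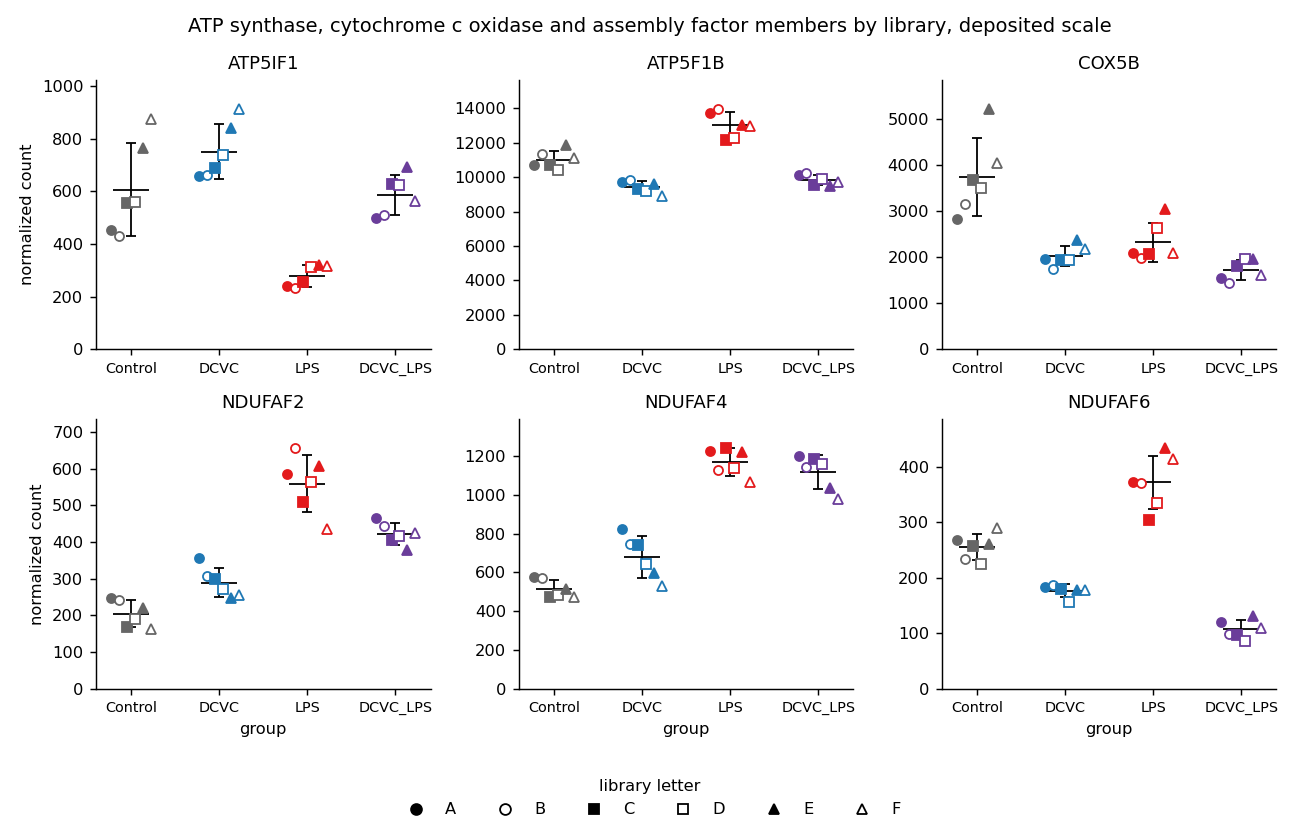
Normalized counts of ATP5IF1, ATP5F1B, COX5B, NDUFAF2, NDUFAF4 and NDUFAF6 (vertical axes, from 0) in the 4 groups, with 1 symbol per library letter and a bar with whiskers for mean and SD of 6 libraries. ATP5IF1 is lowest in LPS (232 to 320.4). On this deposited scale NDUFAF6 is highest in LPS (304 to 434) and lowest in DCVC_LPS (85.9 to 132).

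Tissue-restricted isoforms of complex IV were at or near 0. COX4I2, COX6A2, COX7A1 and COX7B2 had no count in any library, COX8C averaged 0.459 in Control, and COX6B2 averaged 0.493 in Control and 3.77 in DCVC. Their widely expressed counterparts were high, among them COX4I1 at 3955 to 5609 and COX5A at 1515 to 2028 in Control. COX4I1 was not called in any comparison on the deposited scale, and with the replicate block it was called in all 4 comparisons of groups (adjusted p = 0.0210, 3.34e-04, 0.0195 and 3.53e-04 for changes of 0.12, -0.21, -0.12 and 0.20). With equal totals all 4 of these changes turned their direction: LPS minus Control was -0.36 (adjusted p = 0.00121), DCVC minus Control 0.04 (adjusted p = 0.710), DCVC_LPS minus LPS 0.31 (adjusted p = 0.00469) and DCVC_LPS minus DCVC -0.09 (adjusted p = 0.394). NDUFA4, which is part of complex IV despite its name, ran from 2005 to 3329 in Control, and its paralogue NDUFA4L2 from 24.6 to 53.6. DCVC lowered NDUFA4L2 by 1.10 without LPS (adjusted p = 0.00144) and by 1.41 with it (adjusted p = 6.98e-05), and in both comparisons the groups overlapped. C15orf48, another NDUFA4 paralogue and not a member, went from 1.04 to 5.12 in Control to 11.8 to 29.9 in LPS and 26.5 to 48.4 in DCVC_LPS.

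Other genes of the pathway were taken from a fixed list of 88, of which 84 were tested. LPS raised 37 of them and lowered 28, against 37.8% and 40.6% of all genes, and 24 and 50 with equal totals, against 22.4% and 59.5%. On the deposited scale complex II, the complex with no mitochondrial subunit, had 0 of 4 raised and 1 lowered, SDHC at -0.30 (limma, adjusted p = 3.12e-05). Equal totals shift all LPS minus Control changes downwards, so these counts and those of the electron carriers, also on the deposited scale, depend on the scale. Among the 4 electron carriers, 2 rose and 1 fell with LPS: CYCS, the cytochrome c that links complexes III and IV, ran from 2306 to 3276 in Control and from 7846 to 9568 in LPS (1.59, SE 0.095, adjusted p = 8.25e-14), with an interaction of -0.73 (adjusted p = 9.65e-05).

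Of 13 tested genes for mitochondrial RNA processing and stability, 10 rose and none fell with LPS, against 37.8% and 40.6% of all genes (6 and 3 with equal totals, against 22.4% and 59.5%). In DCVC_LPS minus LPS 1 rose and 10 fell, against 33.3% and 39.4% (4 and 2 with equal totals, against 54.5% and 21.9%). On the deposited scale LRPPRC, which stabilises mitochondrial mRNAs, changed by 0.80 and then -0.48. MTPAP, the mitochondrial poly-A polymerase, changed by 1.11 and -0.62, and SUPV3L1, a helicase of RNA turnover, by 1.71 and -0.34. Equal totals shift all LPS minus Control changes downwards and all DCVC_LPS minus LPS changes upwards, so the size of these rises and falls depends on the scale. Of 14 genes for mitochondrial DNA transcription and replication 6 rose and 5 fell with LPS, against 37.8% and 40.6% of all genes (4 and 8 with equal totals, against 22.4% and 59.5%). These shares were close to those of all genes. TFB2M, a factor that opens mitochondrial promoters, rose by 1.27 and TWNK, the replicative helicase, by 2.41, TFAM rose by 0.56, and the polymerase POLRMT was at -0.05 (adjusted p = 0.679). In DCVC_LPS minus LPS the first 3 changed by -0.91, -0.93 and -0.47, and with equal totals TFAM was called in neither comparison (0.08 and -0.04).

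Known regulators of nuclear subunit genes rose with LPS in 7 of 8 cases and fell in 1, against 37.8% and 40.6% of all genes (5 raised and 3 lowered with equal totals, against 22.4% and 59.5%). GABPB1 rose by 1.59, PPRC1 by 1.88, PPARGC1B by 1.40 and NRF1 by 0.70, and PPARGC1A, at 12.5 to 34.7 in Control and 0 to 9.55 in LPS, was lowered (adjusted p = 9.23e-07). For PPARGC1B, DCVC_LPS minus LPS was -2.25 (adjusted p = 1.52e-10). On the deposited scale assembly genes went both ways with LPS, where 37.8% of all genes were raised and 40.6% lowered. Equal totals shift these changes downwards, and the counts for each assembly group on that scale are not given here. For complex I 3 of 10 were raised and 5 lowered, and for complex III 0 of 6 and 3. For complex IV the counts were 8 of 20 and 9, and for ATP synthase 0 of 4 and 3. In the last group ATPAF1, a chaperone of the beta subunit, changed by -1.39 with LPS and by 1.37 in DCVC_LPS minus LPS. Over the 84 genes of the list DCVC minus Control gave 35 raised and 7 lowered, against 27.5% and 32.2% of all genes (60 and 1 with equal totals, against 46.1% and 20.1%). DCVC_LPS minus LPS gave 33 and 34, against 33.3% and 39.4% (54 and 11 with equal totals, against 54.5% and 21.9%). DCVC_LPS minus DCVC gave 30 and 22, against 29.9% and 32.2% (14 and 46 with equal totals, against 16.3% and 52.7%), and the interaction 19 and 29, against 22% and 23.7% (23 and 19 with equal totals, against 33.1% and 16.1%).

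Nuclear copies of mitochondrial genes can take reads of the originals. Of 400 such symbols 8 reached the mean of 10, and their sequences were 93.0% to 99.1% identical to the mitochondrial gene. MTND2P28, 98.4% identical to MT-ND2, was the most counted, at 2045 to 2656 in Control and 3958 to 7282 in LPS, a change of 1.16 where MT-ND2 had 1.18. LPS raised 7 of the 8 and lowered none, against 37.8% and 40.6% of all genes (4 and 0 with equal totals, against 22.4% and 59.5%). In DCVC_LPS minus LPS 4 fell and none rose, against 39.4% and 33.3% (1 and 0 with equal totals, against 21.9% and 54.5%). How reads that match more than 1 place were counted is not given in the sources used here. Among nuclear subunits with under 10% of their exon bases in other genes, 8 of 45 were raised and 16 lowered by LPS on the deposited scale. The shares of all genes were 37.8% and 40.6%, and the median of these subunits was -0.15.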

How the data were processed

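The deposited table holds 1 value for each of 58381 gene entries in 24 libraries, 6 in each of 4 groups taken from the titles. Per the submitters' processing notes, the authors worked with build hg38 and named STAR and featureCounts 1.6.1 for the reads, DESeq2 1.24.0 under R 3.6.0, and FastQC 0.11.5 with MultiQC 0.9 for quality. The deposited signal is a read count that the authors divided by 1 factor per library: every value was a whole multiple of what 1 read is worth (100% of values, within 0.1 of a read), so that whole reads could be recovered. For strand setting and for reads that match several places, the settings were not given in the sources used here.

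Of the entries 19595 had no gene name and were left out (1.01% of the values), and 51 symbols on 2 entries were summed. The main test was limma 3.58.1 in R 4.3.3 on log2(value + 1) with all 24 libraries in 1 fit and Benjamini-Hochberg adjustment over the 13900 genes whose mean was 10 or more. Fold sizes are on this log2 scale, which understates changes of low genes. Equal totals rescaled each library to the same sum over named genes. Alternatives were edgeR 4.0.16 and DESeq2 1.42.0 on the whole reads, other pseudocounts (0.5 and 10) and filters (none, or a mean of 50), the compared groups only, the letter as a replicate block, leaving out each library, pairs of letters, and other member sets.

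Libraries of the same letter deviated together from their group means: all 36 correlations were above 0.1 (0.134 to 0.539, median 0.330), against a median of -0.0837 between other letters. Different letters within A and B, C and D, or E and F correlated nearly as much (36 correlations, median 0.286, lowest 0.0522), and 20 of the 24 libraries correlated best with their own letter, so 6 of 6 letters may be fewer than 6 separate units. By these correlations the letters pair the libraries, although no label tells what a letter stands for. The main fit had no term for the letter, so its p-values do not use this pairing. The replicate block alternative does. Positions are those of GENCODE 29 on GRCh38, and sequences come from the GRCh38 genome and from RefSeq promoters, where 76 members matched. With 18478618 to 30107819 reads a library, counting error was small for all but the lowest members.

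Members, gene lists and named genes were chosen with earlier results of these data known. Named were all mitochondrial members, core subunits and isoforms, and for each comparison the 4 nuclear members with the largest rise and fall among those called with a mean of at least 50; 1 gene that this rule names and 1 marker are not reported here. Other subunits named in the text, such as UQCR10, NDUFS7 and COX8A, were chosen after their values were seen.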

Additional observations from a re-analysis of the deposited data

Results flagged for a closer look

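In 3 of 180 groups of 6 libraries 1 library stood apart from the other 5, its gap to the nearest exceeding 0.625 of the range; chance does this in about 1 in 20 groups. They were ATP5MC1 in LPS C at 552 normalized counts, NDUFS3 in LPS E at 614, and NDUFAF6 in DCVC D at 156.

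For 23 named members the effect of LPS differed between cells with and without DCVC (limma, adjusted p under 0.05 for the interaction on the deposited log2 scale). Among all tested genes 22% were called above 0 and 23.7% below it. Some members were named because of a large called interaction, so the count of 23 is partly set by that choice. The mitochondrial members among the 23 were all below 0: MT-ND2 at -0.68, MT-ND3 at -0.49, MT-CO3 at -0.45, MT-CYB at -0.42 and MT-ND1 at -0.36. In complex I the values were 0.52 for NDUFS8, 0.51 for NDUFS3, 0.42 for NDUFA5, 0.40 for NDUFB5, 0.31 for NDUFS5, -0.28 for NDUFV3, -0.47 for NDUFC1 and -0.50 for NDUFA9. In complexes III and IV they were 0.47 for UQCRC1, -0.29 for UQCRFS1 and 0.45 for COX5B. In ATP synthase they were 0.27 for ATP5MC2, 0.23 for ATP5F1A and -0.18 for ATP5F1B, and the inhibitor ATP5IF1 had 0.72. The assembly factors were below 0, with NDUFAF4 at -0.46, NDUFAF2 at -0.90 and NDUFAF6 at -1.27.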

How the results depend on the processing

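Of 881 alternative values for counts and ratios 810 stayed close to the reported value. For a count this meant within 1.5 times the reported count. For a change of the log2 ratio it meant within the pooled SD between libraries of a group, whatever the sign. Equal totals moved most. The nuclear counts raised became 1 for LPS minus Control (13 as reported), 34 for DCVC minus Control (12), 63 for DCVC_LPS minus LPS (23), 0 for DCVC_LPS minus DCVC (15) and 34 for the interaction (17). The nuclear counts lowered became 64 (23), 4 (21), 1 (13), 36 (13) and 0 (5). Mitochondrial counts became 0 lowered for DCVC minus Control (4), 2 lowered for DCVC_LPS minus LPS (13), 1 raised for DCVC_LPS minus DCVC (13) and 1 lowered for the interaction (5). Of 145 called changes of named genes, 79 stayed called in the same direction with equal totals. Another 44 kept their direction but were no longer called, and 22 changed sign. Over all alternatives, 4857 of 5195 values for these changes stayed called in the same direction. Single called genes that changed sign with equal totals were, for DCVC_LPS minus LPS, MT-CO1 0.12, MT-ND5 0.0463, UQCRFS1 0.25, COX5A 0.20, ATP5F1B 0.0258, NDUFAF2 0.0331, NDUFV3 0.24, COX5B 0.00943, NDUFS5 0.25, UQCR11 0.27 and NDUFC1 0.0550. For DCVC minus Control they were MT-ND6 0.00393, COX5A 0.0709, ATP5F1B 0.0255 and UQCR11 0.0149, and for LPS minus Control UQCRFS1 -0.0618, ATP5F1B -0.24, NDUFAF7 -0.29 and UQCR11 -0.13. For DCVC_LPS minus DCVC they were UQCRFS1 -0.17 and NDUFS5 -0.0804, and for the interaction ATP5F1B 0.00034.

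For the fits described next, the shares of all genes called are not given here, so their counts have no background beside them. With the replicate block 11 mitochondrial genes were lowered by DCVC and 10 in the interaction. The block lost no call in either set and moved no other count by over 1.5 times. With edgeR the mitochondrial count was 2 for DCVC minus Control and 10 for the interaction, and nuclear counts raised were 9 for DCVC_LPS minus DCVC and 11 for the interaction. With no filter the interaction had 3 lowered in each set, and with all nuclear-prefix members it had 9 nuclear ones lowered. With letters A and B only, nuclear counts were 27 raised and 8 lowered for DCVC minus Control, 7 raised for DCVC_LPS minus DCVC and 11 raised for the interaction, and mitochondrial counts lowered were 12 for DCVC minus Control and 10 for the interaction. With C and D only, nuclear counts were 7 lowered for DCVC_LPS minus LPS, 34 raised and 8 lowered for DCVC_LPS minus DCVC and 31 raised for the interaction, where 12 mitochondrial genes were lowered. With E and F only, nuclear counts were 3 raised for LPS minus Control, 1 raised for DCVC minus Control, 10 raised for DCVC_LPS minus LPS, 5 raised and 8 lowered for DCVC_LPS minus DCVC, and 4 raised and 0 lowered for the interaction, mitochondrial counts were 0 for DCVC minus Control and for the interaction, and NDUFB5 changed by -0.0030 for DCVC minus Control. These fits hold 2 libraries a group. The log2 ratio of mitochondrial to nuclear subunits, chosen for these splits after the data were seen, was -0.35 with A and B and 0.19 with E and F for DCVC minus Control (-0.06 over all), -0.76 and -0.24 for DCVC_LPS minus LPS, and 0.24 with C and D for DCVC_LPS minus DCVC. The cause of these changes was not tested.

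Leaving out single libraries gave 13 to 24 nuclear and 1 to 9 mitochondrial genes lowered for DCVC minus Control, and 2 to 6 and 3 to 9 for the interaction. Depth limits only the lowest members, such as NDUFA4L2.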
